A study of Caenorhabditis elegans with 6 samples.

Results

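The furrow collagens of *C. elegans* are 6 cuticle collagen genes, *dpy-2*, *dpy-3*, *dpy-7*, *dpy-8*, *dpy-9* and *dpy-10*. They were chosen by name as the collagens of the annular furrows, with earlier results of these data known. They are 6 of the 20001 genes to which the deposited transcripts could be assigned, and all 6 were abundant enough to be tested. RNA was sequenced from whole animals of 2 groups, *ddi-1(icb156)* mutants and wild type, with 3 biological replicates of each. All animals were L4 larvae synchronized by bleaching and grown on *E. coli* OP50 at 20°C. *ddi-1* encodes an aspartic protease that activates the transcription factor SKN-1A, and *icb156* is a non-synonymous allele from a chemical mutagenesis screen. The strain listed for it also carries the integrated transgene icbIs4, with *chil-27p::GFP* and *col-12p::mCherry*. The sources used here do not say whether the wild-type animals carry that transgene, and effects of the allele, of the transgene and of other mutations of the strain cannot be told apart.

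The cuticle is a collagen-rich matrix that the epidermis secretes anew before each molt, and its surface is divided into ring-shaped annuli separated by furrows. Collagens are made in waves within each molting cycle, and those of the furrows are made together, early in the cycle, before those of the annuli. Animals that lack any of the furrow collagens are short and fat (Dumpy), lose the furrows, and switch on antimicrobial peptide, detoxification and osmotic stress genes in the epidermis. The study itself used the promoter of *dpy-7* to drive expression in the epidermis. The comparison asked here is whether transcripts of the furrow collagens, and of the genes known to respond to their loss, differed between *ddi-1(icb156)* mutants and wild type.

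Totals were 28962104 to 36258118 estimated counts in the mutant libraries and 40554395 to 47142002 in the wild-type libraries. *ddi-1* transcripts had 35.0, 35.3 and 35.5 CPM (counts scaled to the same library size) in the mutants and 48.5, 50.3 and 48.6 CPM in wild type, a log2 fold change of -0.48 (SE 0.05, adjusted p = 0.00308 by edgeR), which is no check of the labels because the allele changes the protein. Epidermal transcripts were present in every library, at a summed 1456 to 1880 CPM over 10 marker genes in the mutants and 1830 to 2284 CPM in wild type. By edgeR, 1 of the 10 was higher in the mutants (*nhr-25*, described below), 1 lower (*ajm-1*, log2 fold change -0.68, adjusted p = 0.0113, or 0.368 from its most abundant transcript alone) and 8 not called. Without wild-type replicate 2, 3 of the 10 were higher, *nhr-25* among them, and 1 was lower, again *ajm-1*. In RNA of whole animals, fewer cells of a type and less RNA per cell cannot be told apart. In contrast, the summed level of 9 adult stage markers, among them yolk protein and adult collagen genes, was 401 to 646 CPM in the mutants and 4185 to 7227 CPM in wild type. Genes were compared by edgeR's quasi-likelihood test with Benjamini-Hochberg adjustment over the 15410 genes tested, and a gene was called, or passed, when its p was under 0.01 and its adjusted p under 0.1. Of all genes tested, 9.96% passed as higher in the mutants and 13.4% as lower. In the fit without wild-type replicate 2 these shares were 19.7% and 22.2%. All 9 adult markers passed as lower in the mutants, also without wild-type replicate 2. Summed germline markers reached 1240 to 1532 CPM in the mutants and 1626 to 2510 CPM in wild type, with 11 of 13 genes lower and the other 2 not passing. Only 1 to 5 of the 13 germline genes passed when wild-type replicate 1 or 3 or any mutant library was left out, and 13, all lower, without wild-type replicate 2. Within wild type, replicate 2 stood apart: it had 4185 CPM of adult markers where replicates 1 and 3 had 6585 and 7227 CPM, and 1626 CPM of germline markers where they had 2510 and 2490 CPM. The part of developmental stage in the results below was not tested, and counts of called genes are also given without that library.

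The 6 genes lie on 3 chromosomes. On the WBcel235 assembly, *dpy-10* (WBGene00001072, T14B4.7) lies at chrII:6710149-6712227 on the minus strand and *dpy-2* (WBGene00001064, T14B4.6) at chrII:6714292-6715971 on the plus strand. These neighbours point away from each other, with 2064 bases between them in which 4 other genes are annotated, wholly or in part. The X chromosome holds *dpy-3* (WBGene00001065, EGAP7.1) at chrX:2144605-2145647, *dpy-8* (WBGene00001070, C31H2.2) at chrX:5148804-5150476 and *dpy-7* (WBGene00001069, F46C8.6) at chrX:7536467-7537792, all on the minus strand. *dpy-9* (WBGene00001071, T21D12.2) lies at chrIV:257403-259204, also on the minus strand. Each gene has 2 to 5 exons, and their exons together span 961 bases in *dpy-3* to 1593 bases in *dpy-10*. The files list 1 to 3 transcripts for each, and a single transcript carried 91.8% of the counts of *dpy-3*, 96.6% of those of *dpy-9* and 99.0% of those of *dpy-2*.

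No furrow collagen was called as different between the groups when all 6 libraries were used, and the groups overlapped for each gene. In every case the 3 mutant libraries lay close together, above wild-type replicates 1 and 3 and below wild-type replicate 2. None of the 6 passed, where 23.4% of all genes tested passed, 9.96% as higher and 13.4% as lower in the mutants. None had an unadjusted p below 0.05 either, by edgeR, by DESeq2 or by limma. The arrangement with all mutants above wild-type replicates 1 and 3 and below replicate 2 was shared by 722 genes, or 4.69% of those tested.

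*dpy-7*, the furrow collagen most used as an epidermal marker, had 148, 182 and 163 CPM in mutant replicates 1 to 3, against 81.5, 314 and 118 CPM in wild-type replicates 1 to 3. The mutants differed among themselves by far less than the wild-type libraries did. Its means were 164 ± 17.5 CPM in the mutants and 171 ± 125 CPM in wild type (SD, n = 3 each), which gave a log2 fold change of -0.06 (SE 0.48, 95% interval -1.21 to 1.1, adjusted p = 0.940 by edgeR).

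*dpy-2*, which encodes a furrow collagen and neighbours *dpy-10*, had 130, 166 and 135 CPM in the mutants, against 66.2, 280.0 and 105 CPM in wild type. The single high value was wild-type replicate 2. The group means were 144 ± 19.5 CPM in the mutants and 151 ± 114 CPM in wild type (SD, n = 3 each), and the log2 fold change was -0.07 (SE 0.50, interval -1.28 to 1.15, adjusted p = 0.932 by edgeR).

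*dpy-3* had 135, 153 and 145 CPM in the mutants, against 66.7, 266 and 102 CPM in wild type. Of the 6 genes it varied least among the mutants, with an SD of 9.05 CPM around 144 CPM in the mutants and of 106 CPM around 145 CPM in wild type (n = 3 each). Its log2 fold change was -0.0046 (SE 0.48, interval -1.16 to 1.16, adjusted p = 0.996 by edgeR).

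*dpy-8* had 189, 235.4 and 203 CPM in the mutants, against 111, 408 and 174 CPM in wild type. Here wild-type replicate 3 came nearest to the mutants. The means were 209 ± 23.9 CPM in the mutants and 231 ± 156 CPM in wild type (SD, n = 3 each), which gave a log2 fold change of -0.14 (SE 0.45, interval -1.23 to 0.94, adjusted p = 0.837 by edgeR).

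*dpy-9* had 112.5, 142 and 131 CPM in the mutants, against 57.9, 261 and 91.6 CPM in wild type. It kept the same order of libraries as *dpy-7*, as did *dpy-2*, *dpy-3* and *dpy-8*. The means were 129 ± 15 CPM in the mutants and 137 ± 109 CPM in wild type (SD, n = 3 each), and the log2 fold change was -0.09 (SE 0.53, interval -1.36 to 1.18, adjusted p = 0.912 by edgeR).

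*dpy-10*, whose dominant Roller alleles serve as a marker in genome editing, had 72.3, 93.8 and 94.0 CPM in the mutants, against 37.04, 176 and 41.3 CPM in wild type. Wild-type replicates 1 and 3 were nearly equal, unlike for the other furrow collagens. The means were 86.7 ± 12.5 CPM in the mutants and 84.8 ± 79.0 CPM in wild type (SD, n = 3 each), and the log2 fold change was 0.03 (SE 0.61, interval -1.43 to 1.5, adjusted p = 0.974 by edgeR). For all 6 genes the intervals reach to a change of at least 0.94 on the log2 scale in either direction, so they do not show that the groups were alike.

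**Figure D1:**
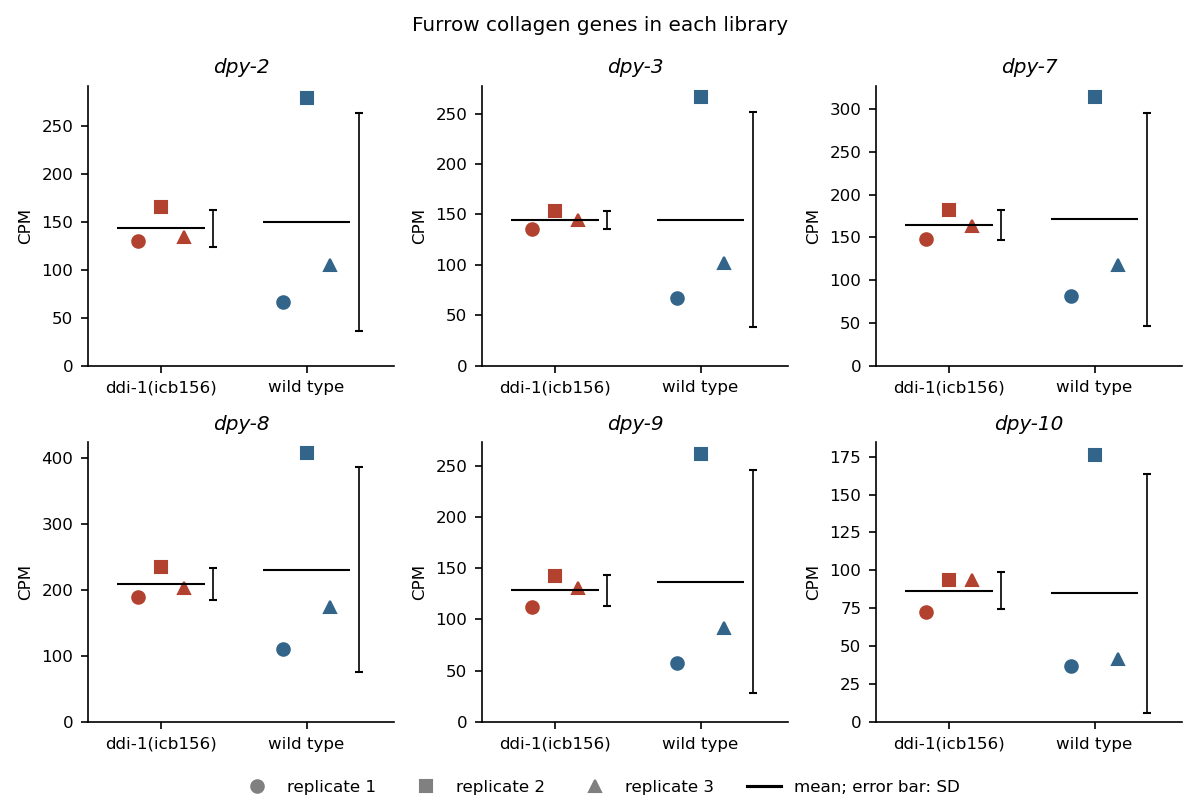
CPM of each furrow collagen (y axes, starting at 0) in the 3 *ddi-1(icb156)* and the 3 wild-type libraries, with a marker for each replicate number, a line at the group mean and a bar of 1 SD beside it. In all 6 panels the mutant points lie between wild-type replicate 2, at the top, and wild-type replicates 1 and 3, so that *dpy-7* had 148 to 182 CPM in the mutants and 81.5 to 314 CPM in wild type.

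The spread lay in wild type. The highest and lowest mutant libraries differed by 1.13-fold to 1.3-fold over the 6 genes, and the wild-type libraries by 3.66-fold for *dpy-8* to 4.75-fold for *dpy-10*. Wild-type replicate 2 exceeded the mean of replicates 1 and 3 by 2.85-fold in *dpy-8*, 3.15-fold in *dpy-7*, 3.16-fold in *dpy-3*, 3.27-fold in *dpy-2*, 3.5-fold in *dpy-9* and 4.5-fold in *dpy-10*. Between 0.48% of all genes tested, for *dpy-10*, and 2.29%, for *dpy-8*, had a larger ratio of that kind. Replicate 2 was the highest wild-type library for 43.3% of all genes tested.

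The direction of the difference therefore depended on which libraries were set against each other. Between libraries with the replicate number 1, the mutant was 1.70-fold to 2.03-fold above wild type for the 6 genes. For number 2 the mutant stood at 0.533 to 0.593 of wild type, and for number 3 it was 1.16-fold to 2.28-fold above.

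Without wild-type replicate 2, 5 of the 6 furrow collagens passed as higher in the mutants and *dpy-8* did not pass. In that fit 41.9% of 15644 genes passed, 19.7% as higher and 22.2% as lower. The log2 fold changes were 0.74 for *dpy-2* (SE 0.19, adjusted p = 0.0143 by edgeR), 0.78 for *dpy-3* (SE 0.16, adjusted p = 0.00539) and 0.72 for *dpy-7* (SE 0.16, adjusted p = 0.00678). They were 0.78 for *dpy-9* (SE 0.19, adjusted p = 0.0101) and 1.15 for *dpy-10* (SE 0.13, adjusted p = 1.42e-04). *dpy-8* had 0.55 (SE 0.18, adjusted p = 0.0389), with an unadjusted p of 0.0181 that missed the limit. Leaving out any other single library left none of the 6 past the thresholds. Over the 16 alternative settings run for each gene, adjusted p ranged over 0.0143 to 0.998 for *dpy-2*, 0.00539 to 1.0 for *dpy-3*, 0.00678 to 0.991 for *dpy-7*, 0.0389 to 0.940 for *dpy-8* and 0.0101 to 0.997 for *dpy-9*, and over 1.42e-04 to 0.989 in 18 settings for *dpy-10*.

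**Figure D2:**
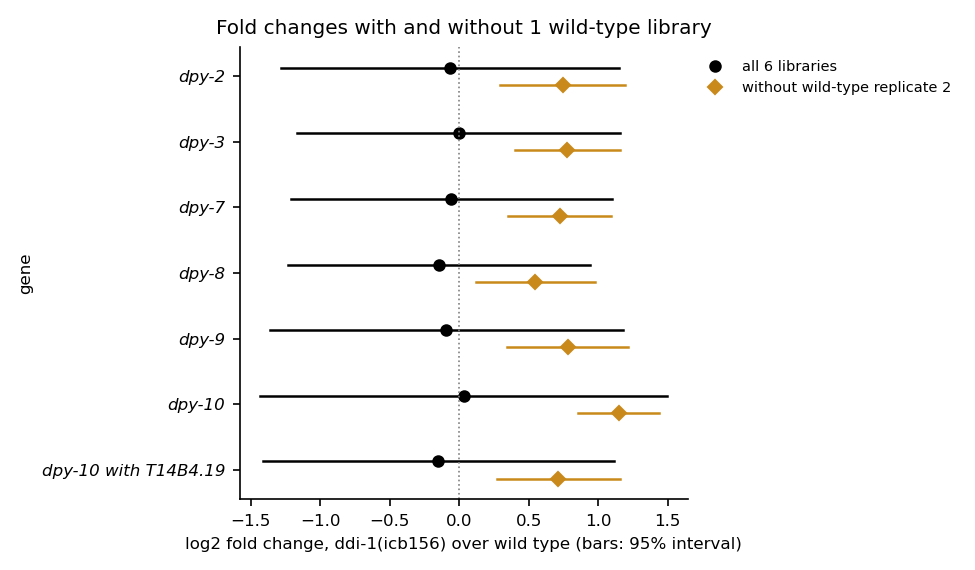
Log2 fold change of *ddi-1(icb156)* over wild type for each furrow collagen and for *dpy-10* counted together with T14B4.19 (x axis), with 95% intervals, from all 6 libraries (circles) and without wild-type replicate 2 (diamonds). All intervals from 6 libraries include 0, and those without that library lie above 0, around values of 0.55 for *dpy-8* to 1.15 for *dpy-10*.

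Compared per length, in TPM (counts corrected for effective length and scaled to the same sum in each library), the 6 genes kept nearly the same order in every library. *dpy-3* averaged 162 ± 17.1 TPM in the mutants and 159 ± 121 TPM in wild type (SD, n = 3 each), and was the highest of the 6 in 5 libraries, *dpy-8* leading in wild-type replicate 3. *dpy-7* averaged 147 ± 22.0 TPM in the mutants and 150 ± 112 TPM in wild type. *dpy-8* averaged 139 ± 22.2 TPM in the mutants and 151 ± 105 TPM in wild type. *dpy-9* averaged 127 ± 19.7 TPM in the mutants and 133 ± 108 TPM in wild type. The neighbours in this order, *dpy-3*, *dpy-7*, *dpy-8* and *dpy-9*, differed by less than their SDs in either group. *dpy-2* averaged 110 ± 20.2 TPM in the mutants and 112.8 ± 87.6 TPM in wild type and was the fifth in all 6 libraries. *dpy-10* averaged 54.4 ± 9.15 TPM in the mutants and 52.3 ± 49.8 TPM in wild type and was the lowest in all 6 libraries.

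Taken over the set, the furrow collagens had a summed 646, 858 and 711 TPM in the mutants, against 338, 1423 and 512 TPM in wild type. Their shares of that sum moved little among the 6 libraries. *dpy-3* made up 20.9% to 22.8% of it, *dpy-7* 19.5% to 20.6%, *dpy-8* 18.4% to 21.8%, *dpy-9* 16.2% to 18% and *dpy-2* 14% to 15.5%. The share of *dpy-10* was 4.87% to 8.05%. The ratio between any 2 of the 5 genes other than *dpy-10* varied over the 6 libraries by 1.12-fold to 1.24-fold, in 10 pairs, while the 5 ratios that involve *dpy-10* varied by 1.59-fold to 1.96-fold.

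The looser ratios of *dpy-10* involve a gene that shares its sequence. T14B4.19 is annotated as protein-coding at chrII:6711011-6712931, on the same strand, and 780 of its 823 exon bases in that annotation are also exon bases of *dpy-10*. In the deposited files its main transcript is 1638 bases long and that of *dpy-10* 1593 bases. The 2 genes' estimated counts were fractions, yet they summed to a whole number, within 0.01, in all 6 libraries, so the reads they took were divided between them. *dpy-10* was given 53.1%, 55.9% and 60.3% of this sum in the mutants, against 51.8%, 54.4% and 35.8% in wild type. The lowest share was that of wild-type replicate 3, where T14B4.19 had 2913 counts and *dpy-10* had 1622.

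Counted together, the pair had 136, 168 and 156 CPM in the mutants, against 71.5, 323 and 115 CPM in wild type. This is the arrangement of the other furrow collagens, with replicate 3 of wild type again well above replicate 1. The ratio to *dpy-7* then ranged over 0.878 to 1.03 among the libraries, a 1.17-fold range, and over 0.350 to 0.576, a 1.64-fold range, for *dpy-10* alone. The log2 fold change of the pair was -0.15 (SE 0.52, interval -1.41 to 1.11, adjusted p = 0.855 by edgeR). Without wild-type replicate 2 it was 0.71 (SE 0.19, adjusted p = 0.0157), which lies among the 0.55 to 0.78 of the other 5 genes, against 1.15 for *dpy-10* alone. Whether reads were divided wrongly or T14B4.19 has transcripts of its own was not tested. Even with T14B4.19 added, the level stayed below that of *dpy-2* by TPM in all 6 libraries. A gene on the other strand, C31H2.14, shares 109 exon bases with *dpy-8* but had only 11 to 77 counts.

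**Figure D3:**
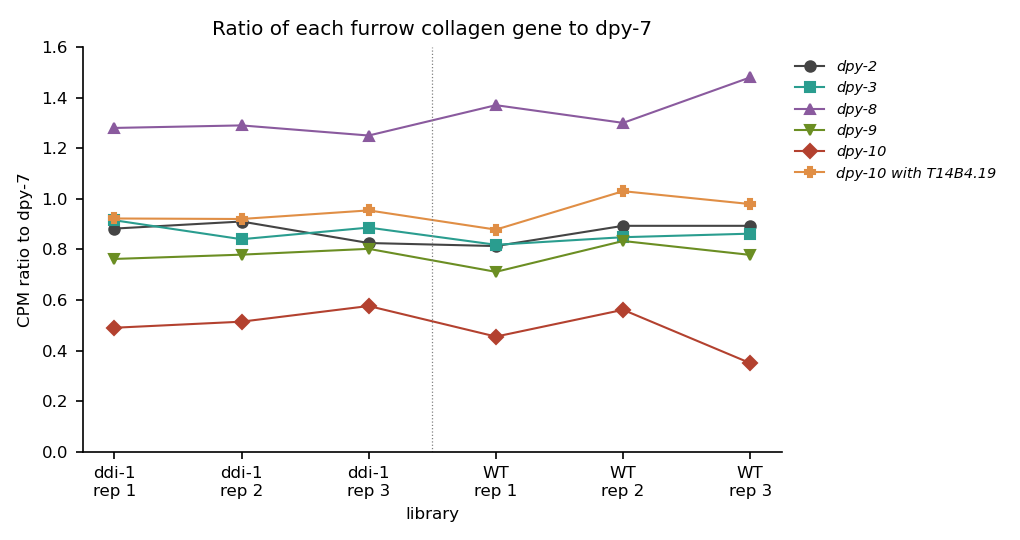
Ratio of CPM to that of *dpy-7* (y axis) in each of the 3 *ddi-1(icb156)* and 3 wild-type libraries (x axis), for the 5 other furrow collagens and for *dpy-10* counted together with T14B4.19. The lines run nearly level except that of *dpy-10* alone, which is 0.490 to 0.576 in the mutants and drops to 0.350 in wild-type replicate 3.

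Other genes followed the furrow collagens across the 6 libraries. Likeness was measured as the Pearson correlation of log2 CPM with the mean pattern of the 6 members, among 13218 other genes with a mean of at least 50 counts. The points share their libraries, so the correlations are a description. The members had 0.9736 to 0.9997, each measured against a mean that includes it. The 8 most alike were Y73E7A.8, ZK154.4, *lpr-5*, *noah-2*, F11E6.9, *wrt-10*, B0454.5 and *dnj-27*, at 0.995 to 0.998, and 17 genes reached 0.99. Correlation takes no account of the size of a change. Replicate 2 of wild type exceeded the mean of replicates 1 and 3 by only 1.34-fold in ZK154.4 and 1.65-fold in *dnj-27*. In the rest of the 8 it did so by 2.8-fold (Y73E7A.8) to 4.25-fold (*wrt-10*). Wild-type replicate 2 was the highest library for all 8, which follows from choosing them by a pattern that peaks there. *lpr-5* encodes a lipocalin of the apical matrix, *noah-2* a zona pellucida domain protein of the cuticle precursor and *wrt-10* a Hedgehog-related protein of the epidermis.

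*noah-2* had 441, 501 and 499 CPM in the mutants, against 256, 887 and 369 CPM in wild type. *lpr-5* had 197, 237 and 212 CPM in the mutants, against 102, 433 and 160 CPM in wild type. In *wrt-10* the levels were 141, 158 and 161 CPM in the mutants, against 62.8, 349 and 102 CPM in wild type. All 3 put the mutants between wild-type replicate 2 and the other wild-type libraries, as did the furrow collagens, by whose pattern they were chosen. None of the 8 genes passed with all 6 libraries.

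In the list of 16 genes of molting and the apical matrix, which lies under the old cuticle while the new one is built, 1 was higher, 2 lower and 13 short of the thresholds. The shares over all genes tested were 9.96% higher and 13.4% lower. The median log2 fold change was -0.05, against 0.0051 over all genes tested. In 7 of the 16 the mutants lay between wild-type replicate 2 and the others. Without that library 8 were higher and 3 lower, where 19.7% of all genes were higher and 22.2% lower. The median was then 0.48, against 0.02 over all genes. The astacin protease gene *nas-36*, needed for molting, was higher (log2 fold change 0.67, SE 0.16, adjusted p = 0.0300 by edgeR), but not without wild-type replicate 3 (adjusted p = 0.105), mutant replicate 1 (0.109) or mutant replicate 2 (0.124). *qua-1*, a Hedgehog-related gene, was lower (-0.67, SE 0.11, adjusted p = 0.00982). *mlt-9* was also lower (-0.33, SE 0.09, adjusted p = 0.0355), but not when the replicate number was a block in the fit (0.0679) or without any single library other than wild-type replicate 2 and mutant replicate 1 (adjusted p = 0.0778 to 0.133). It was also not called with library size alone (0.111), by limma on TPM (0.0835) or from its most abundant transcript (0.342). Of the 16 genes, 1 passed without wild-type replicate 3 or mutant replicate 2.

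The other collagens named for body shape or blisters did not follow the furrow collagens. *dpy-13* and *dpy-5*, collagens of the annuli, were lowest in wild-type replicate 2, where the furrow collagens were highest. *dpy-13* had 2716, 2317 and 2293 CPM in the mutants, against 3047, 1649 and 2738 CPM in wild type (log2 fold change -0.02, SE 0.23, adjusted p = 0.953 by edgeR). *dpy-5* had 2072, 1713 and 1663 CPM in the mutants, against 2376, 1329 and 2171 CPM in wild type (-0.11, SE 0.22, adjusted p = 0.744). Of 14 such genes tested, of 15 listed, replicate 2 was the lowest wild-type library in 11. In none did the mutants lie below replicate 2 and above the others, an order that cannot occur where replicate 2 is lowest. For *dpy-13* and *dpy-5*, among others, the mutants lay above replicate 2 and below the other wild-type libraries, the reverse of the furrow collagens. Over all 15410 genes tested, replicate 2 was the lowest wild-type library for 6777.

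Among these 14 collagens, 5 fell and 1 rose in the mutants, 8 were not called, and the median was -0.12. Of all genes tested, 13.4% passed as lower and 9.96% as higher. The counts were also 5 lower and 1 higher without wild-type replicate 2, where 22.2% of all genes were lower and 19.7% higher. The 5 that fell are *bli-1*, *bli-2*, *bli-6*, *rol-1* and *lon-3*. *bli-1* and *bli-2* encode collagens of the struts in the adult cuticle, and they are also 2 of the adult stage markers. *bli-2* had 46.2, 45.3 and 47.1 CPM in the mutants, against 519, 520.1 and 581 CPM in wild type. The groups did not overlap, and wild-type replicate 2 lay beside replicate 1 (log2 fold change -3.55, SE 0.08, adjusted p = 1.44e-05 by edgeR). *bli-6* fell by 5.52 on the log2 scale (SE 0.29, adjusted p = 4.03e-04), and *rol-1* fell by 4.98 (SE 0.38, adjusted p = 0.0011). *rol-6*, which gives a Roller phenotype when mutated, was the gene that rose (0.68, SE 0.10, adjusted p = 0.00668).

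**Figure D4:**
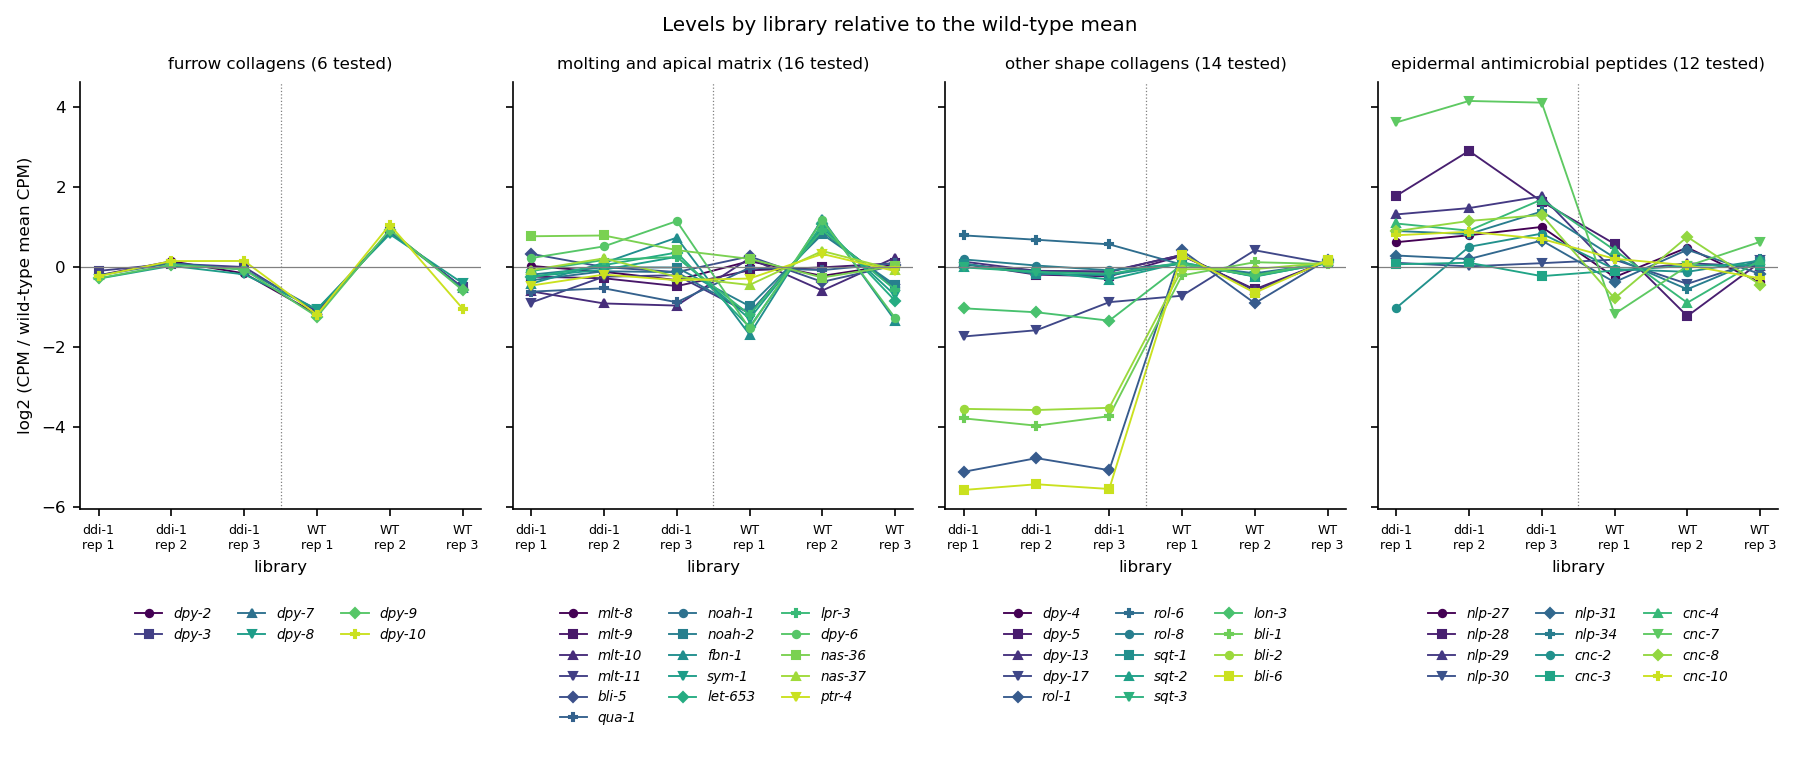
Log2 of CPM over the wild-type mean CPM (y axis) in the 3 *ddi-1(icb156)* and 3 wild-type libraries (x axis), with 1 line for each tested gene of 4 lists. The 6 furrow collagens run together and peak in wild-type replicate 2, 7 of 16 molting and apical matrix genes put the mutants between that library and the other wild-type libraries, and *bli-1*, *bli-2*, *bli-6* and *rol-1* are lower in all 3 mutants.

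Genes for enzymes that modify, fold or cross-link cuticle collagens, and for helper proteins of these enzymes, changed in both directions. Of 11, 3 rose, 3 fell and 5 were not called, where 9.96% of all genes rose and 13.4% fell, and the median was -0.30. Without wild-type replicate 2 there were 3 higher and 4 lower, against 19.7% and 22.2% of all genes. *mlt-7*, a haem peroxidase that cross-links the cuticle, rose (log2 fold change 1.52, SE 0.12, adjusted p = 0.00112 by edgeR), as did *doxa-1*, a maturation factor of the dual oxidase BLI-3 (0.78, SE 0.11, adjusted p = 0.00633). From its most abundant transcript alone *mlt-7* did not pass (1.66, SE 0.50, adjusted p = 0.0829). *dpy-18*, a prolyl 4-hydroxylase subunit, fell by 0.54 on the log2 scale (SE 0.08, adjusted p = 0.00736), and *dpy-11*, a thioredoxin-like protein of the epidermis, by 0.75 (SE 0.07, adjusted p = 0.00165).

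Of 11 epidermal transcription factors, 1 was higher, 1 lower and 9 did not pass. These shares were near those of all genes tested, 9.96% higher and 13.4% lower. *nhr-25*, a nuclear hormone receptor of epidermal development and molting, had 29.01, 31.3 and 27.3 CPM in the mutants, against 7.75, 7.74 and 6.99 CPM in wild type. The groups did not overlap, and wild-type replicate 2 lay beside replicate 1 (log2 fold change 1.96, SE 0.10, adjusted p = 3.09e-04 by edgeR). Counted from its most abundant transcript alone, *nhr-25* did not pass (2.138, SE 0.81, adjusted p = 0.134). *lin-42*, the Period homologue that times molting, was lower (-0.29, SE 0.08, adjusted p = 0.0420), but did not pass with the replicate block (adjusted p = 0.0453) or without wild-type replicate 2 (adjusted p = 0.0401), where the unadjusted p exceeded its limit. The call was also lost without wild-type replicate 3 (adjusted p = 0.111), mutant replicate 1 (0.13) or mutant replicate 3 (0.0862), each of which left 1 of the 11 factors past the thresholds. With library size alone (0.108), a stricter filter on low counts (0.0502) or its most abundant transcript (0.0881) *lin-42* was not called either. Without wild-type replicate 2 there were 4, all higher, in a fit where 19.7% of all genes passed as higher.

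Genes that respond to furrow loss, with some of their regulators, were examined next, by 3 branches. In the antimicrobial branch, 12 of 17 epidermal peptide genes could be tested, of which 5 rose in the mutants, none fell and 7 were not called. None was lower at an unadjusted p under 0.05 either, by edgeR, DESeq2 or limma. Their median log2 fold change was 0.93, and without wild-type replicate 2 there were 9 higher and none lower. Calls rose over all genes in that fit, with 19.7% passing as higher, against 9.96% with all 6 libraries. The count was 3 without wild-type replicate 3 and 2 without mutant replicate 1 or 2. *nlp-29*, the peptide gene whose reporter is the usual readout of this branch, had 40.0, 44.6 and 54.7 CPM in the mutants, against 14.9, 17.2 and 16.3 CPM in wild type. Every mutant library lay above every wild-type library, replicate 2 included, and wild type varied little. The log2 fold change was 1.53 (SE 0.13, adjusted p = 0.00143 by edgeR). *cnc-7*, a caenacin, rose by more (3.92, SE 0.44, adjusted p = 0.00300), with 0.603, 0.875 and 0.850 CPM in the mutants, against 0.0219, 0.0501 and 0.0763 CPM in wild type. These levels rest on only 18, 34 and 28 counts in the mutants and 1, 2 and 3 in wild type, so the size of its change is uncertain.

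Components that signal to these peptides had 6 higher, 1 lower and 5 not passing of 12, with a median of 0.39. Among all genes tested, 9.96% were higher and 13.4% lower. Without wild-type replicate 2 there were 8 higher and 1 lower, against 19.7% and 22.2% of all genes. *tpa-1*, a protein kinase C, rose (0.84, SE 0.10, adjusted p = 0.00362 by edgeR), as did *nipi-3*, a Tribbles-like kinase (0.54, SE 0.07, adjusted p = 0.00491), *gpa-12*, a G protein subunit (0.86, SE 0.16, adjusted p = 0.0161), and *tir-1*, the SARM1 homologue (0.69, SE 0.14, adjusted p = 0.0215). *sek-1*, a MAP kinase kinase downstream of *tir-1*, was lower (-0.27, SE 0.06, adjusted p = 0.0280), but not with the replicate block (adjusted p = 0.0489) or without wild-type replicate 1 (0.0859) or mutant replicate 1 (0.101) or 2 (0.0964). Nor was it called with library size alone (0.0778), by limma on TPM (0.0833) or from its most abundant transcript (0.191). Leaving out any of those 3 libraries left 4 of the 12 genes past the thresholds. *nipi-3* (adjusted p = 0.0677) and *gpa-12* (0.279) did not pass from their most abundant transcript alone.

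The list of the osmotic branch holds glycerol and inositol genes of the response together with its known regulators. Of its 12 genes, 3 rose and 9 were not called (median 0.07), where 9.96% of all genes tested passed as higher. None passed as lower by edgeR, where 2 had an unadjusted p under 0.05, and 1 passed as lower by DESeq2. Without wild-type replicate 2 there were 4 higher and none lower, in a fit where 19.7% of all genes passed as higher. *gpdh-1*, the glycerol-producing enzyme whose reporter marks this branch, had 21.2, 16.9 and 17.3 CPM in the mutants, against 22.1, 11.5 and 14.5 CPM in wild type. The groups overlapped (log2 fold change 0.20, SE 0.25, adjusted p = 0.575 by edgeR). Its log2 fold change ranged over 0.0064 to 0.51 when a single library was left out, the lowest being without wild-type replicate 2. Those that rose were *ptr-23*, a Patched-related gene (0.68, SE 0.12, adjusted p = 0.0131), and *osm-11* (0.48, SE 0.09, adjusted p = 0.0185), both in the list as regulators. *hmit-1.2*, a myo-inositol transporter, rose as well (1.23, SE 0.25, adjusted p = 0.0228, and 0.0721 without mutant replicate 3, when it did not pass).

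The list of the detoxification branch holds SKN-1 target genes and some regulators. None of its 15 genes rose, 2 fell and 13 were not called (median -0.11). Over all genes tested, 9.96% passed as higher and 13.4% as lower, so the share that fell was near that of all genes. At an unadjusted p under 0.05, edgeR had 0 genes higher and DESeq2 and limma 1 each, and none passed by those tools either. *gst-4*, the glutathione S-transferase gene whose reporter marks this branch, had 21.0, 26.8 and 17.7 CPM in the mutants, against 26.8, 32.9 and 26.4 CPM in wild type. Mutant replicate 2 reached the lower wild-type libraries (log2 fold change -0.39, SE 0.17, adjusted p = 0.134 by edgeR). With the replicate number as a block it was lower (log2 fold change -0.41, adjusted p = 0.0345), as the mutant lay below wild type in each numbered pair. *gcs-1*, the rate-limiting enzyme of glutathione synthesis (-0.31, SE 0.06, adjusted p = 0.0208), and *gst-10* (-0.30, SE 0.07, adjusted p = 0.0261) were lower in the mutants. Neither passed by limma on TPM or with library size alone in place of TMM scaling. *gst-10* did not pass without wild-type replicate 1 (0.1) or 3 (0.107) or mutant replicate 2 (0.0968), which left 1 gene of the list past the thresholds. In the fit without wild-type replicate 2 there were 2 higher and 2 lower, against 19.7% and 22.2% of all genes.

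**Figure D5:**
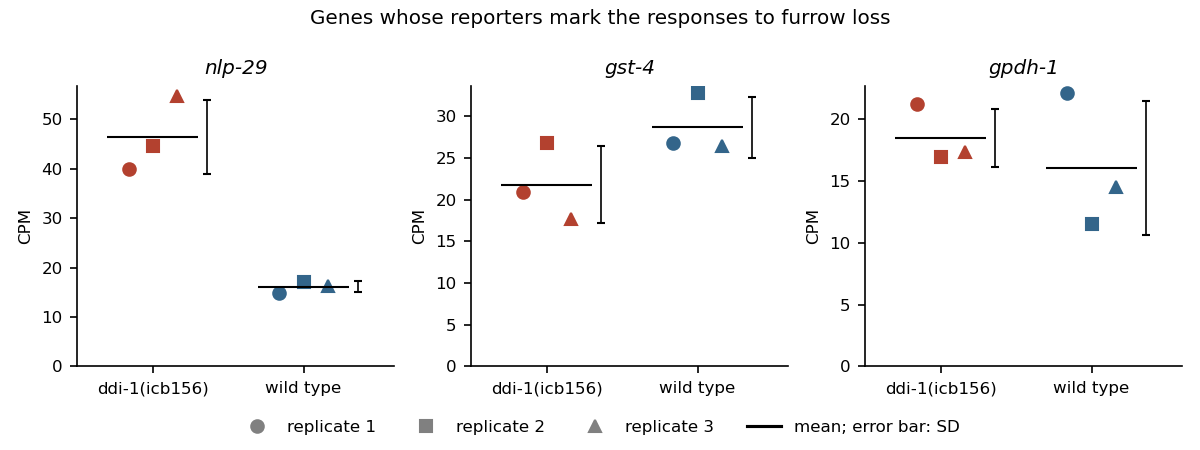
CPM (y axes, starting at 0) of *nlp-29*, *gst-4* and *gpdh-1* in the 3 *ddi-1(icb156)* and 3 wild-type libraries, with a line at the group mean and a bar of 1 SD. *nlp-29* had 40.0 to 54.7 CPM in the mutants and 14.9 to 17.2 CPM in wild type, while the groups overlap for *gst-4* and *gpdh-1*.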

How the data were processed

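Reads were quantified by the authors with kallisto on the WormBase WS283 transcriptome, and transcripts were tested with Sleuth. Tool versions and library strand are not stated in the sources used here. Each deposited file holds each transcript's length, effective length and estimated count, neither normalized nor pooled. Estimated counts of 37058 transcripts were joined to 20001 genes with the Ensembl 115 annotation of WBcel235 (30413 by transcript ID, 6631 by sequence name, 14 unmatched and kept), summed and rounded. No TPM are in the files; TPM were computed here from estimated counts and effective lengths.

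The filterByExpr function of edgeR 4.0.16 (R 4.3.3) kept 15410 genes. Groups were compared by the robust quasi-likelihood test, two-sided, with TMM scaling, no covariates and 4 residual degrees of freedom, adjusted by Benjamini-Hochberg. CPM use TMM-scaled library sizes. The thresholds are those in the heading of a table of the study. limma 3.58.1 and DESeq2 1.42.0 gave alternatives. The test was checked on simulated counts. Totals of 28962104 to 47142002 counts limit the precision of genes with few counts. Same-numbered samples had correlations of 0.115, 0.309 and 0.185 in deviations from group means, and differently numbered ones -0.289 to 0.114. The highest of the latter nearly equals the lowest of the former, so these values do not settle whether the numbers pair the samples. The main test left the replicate number out, and a fit with it as a block was an alternative.

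The members and gene lists were chosen with earlier results of these data known. By the rule for named genes, the text could name the members, *ddi-1*, up to 4 passing genes of each list by p with the best going the other way, the 8 genes most like the members, and *dpy-5*, *dpy-13*, *nlp-29*, *gst-4* and *gpdh-1*. Also named, after their values were seen, are T14B4.19, C31H2.14, *lon-3*, *noah-1*, *lpr-3*, *dpy-6*, *dpy-17*, *mlt-10*, *nlp-28*, *cnc-4*, *cnc-8*, *dcar-1*, *che-14* and *pgl-1*. No sequences are printed.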

Additional observations from a re-analysis of the deposited data

How the results depend on the processing

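No furrow collagen passed under any of the 10 alternatives that kept all 6 libraries, and the sign of these small values was not stable. Set to library size alone, the log2 fold changes were 0.018 for *dpy-2*, 0.078 for *dpy-3* and 0.027 for *dpy-7*, and *dpy-13* had 0.064, Y73E7A.8 0.059 and *noah-2* 0.011. With limma on log2(TPM + 1) they were 0.22 for *dpy-2*, 0.28 for *dpy-3*, 0.21 for *dpy-7*, 0.10 for *dpy-8* and 0.23 for *dpy-9*, and *dpy-13* had 0.059, Y73E7A.8 0.19, *lpr-5* 0.19, *noah-2* 0.17, *wrt-10* 0.26 and B0454.5 0.24. With a pseudocount of 0.5 they were 0.23, 0.28, 0.22, 0.10 and 0.23 for the same furrow collagens, and 0.059, 0.20, 0.20, 0.17, 0.26 and 0.26 for the same others. With the replicate block they were 0.19, 0.25, 0.19, 0.065 and 0.20 for those furrow collagens, and *dpy-13* had 0.022, Y73E7A.8 0.17, *lpr-5* 0.17, *noah-2* 0.14, *wrt-10* 0.24 and B0454.5 0.24. *dpy-3* had 1.7e-04 with no filter on low counts, 0.011 with a stricter one (a mean of 50 counts) and 0.0034 in libraries thinned to the smallest total. F11E6.9 had -0.013 with DESeq2 size factors and -0.015 by DESeq2, and *dnj-27* -0.0026 and -0.0027, or -0.026 from its most abundant transcript. *dpy-10* counted together with T14B4.19, an alternative chosen after seeing the data, had -0.15, or 0.71 without wild-type replicate 2. The cause of these reversals was not tested.

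Leaving out 1 library at a time, the log2 fold changes ranged over -0.41 to 0.74 for *dpy-2*, -0.34 to 0.78 for *dpy-3*, -0.38 to 0.72 for *dpy-7*, -0.47 to 0.55 for *dpy-8*, -0.45 to 0.78 for *dpy-9* and -0.31 to 1.15 for *dpy-10*, and 0 to 5 furrow collagens passed as higher and 0 as lower. For the other genes the ranges were -0.33 to 0.052 for *dpy-5*, -0.25 to 0.15 for *dpy-13*, -0.33 to 0.65 for Y73E7A.8, -0.050 to 0.19 for ZK154.4, -0.45 to 0.71 for *lpr-5*, -0.38 to 0.62 for *noah-2*, -0.29 to 0.74 for F11E6.9, -0.55 to 0.90 for *wrt-10*, -0.47 to 0.93 for B0454.5 and -0.14 to 0.30 for *dnj-27*. Genes that passed numbered 1 to 11 for molting and apical matrix, 1 to 4 for epidermal transcription factors, 2 to 9 for antimicrobial peptides, 4 to 9 for their signalling, 1 to 4 for detoxification, 2 to 4 for epidermis markers and 1 to 13 for germline markers.

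Among the epidermal transcription factors 1 passed with library size alone, 1 with the stricter filter, 1 with the replicate block and 0 from the most abundant transcript. For the antimicrobial peptides the count was 3 with the stricter filter and 8 by DESeq2, for osmotic stress 5 by DESeq2, and for antimicrobial peptide signalling 2 from the most abundant transcript. The detoxification count was 0 with library size alone, 0 with limma at either pseudocount and 0 from the most abundant transcript, which also gave 0 epidermis markers. That setting, which takes 1 transcript of each gene, also left *nhr-25*, *mlt-7*, *nipi-3*, *gpa-12*, *ajm-1*, *cnc-10*, *mlt-9*, *lin-42*, *sek-1*, *gcs-1*, *gst-10* and *ddi-1* short of the thresholds. Besides the calls given with the results, the replicate block changed those of *mlt-10*, *nlp-28*, *cnc-4*, *cnc-8*, *dcar-1*, *che-14* and *pgl-1* in the lists and no other. Of 767 values of other named genes under alternatives, 654 kept their direction and side of the thresholds. With 3 libraries in each group, 1 of which stood apart, the widest 95% interval of a furrow collagen ran over -1.43 to 1.5 on the log2 scale (*dpy-10*).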

Other observations

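Within the molting and apical matrix list, several genes besides *noah-2* shared the arrangement of the furrow collagens. They are named here after their values were seen, as a description. *noah-1*, a zona pellucida domain gene like *noah-2*, had 444.2, 519 and 511 CPM in the mutants, against 251, 1034 and 393 CPM in wild type. *lpr-3*, a lipocalin gene, had 332, 403 and 424 CPM in the mutants, against 156, 674 and 241 CPM in wild type. *dpy-6*, a mucin-like gene, had 78.1, 95.6 and 148 CPM in the mutants, against 23.1, 150.2 and 27.7 CPM in wild type. In the last of these the highest mutant library nearly reached wild-type replicate 2. None of the 3 passed with all 6 libraries, and all 3 were higher in the mutants without that library, with log2 fold changes of 0.61 for *noah-1*, 0.96 for *lpr-3* and 2.08 for *dpy-6*.

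*dpy-17*, a cuticle collagen gene of low level here, had 0.670, 0.747 and 1.21 CPM in the mutants, against 1.36, 2.98 and 2.36 CPM in wild type. Its log2 fold change was -1.34 (SE 0.38, adjusted p = 0.0447 by edgeR), which missed the limit on the unadjusted p, and with the replicate block it passed (adjusted p = 0.0354).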
